A study of Mus musculus with 28 samples.

Results

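The genes described here are 10 glycolytic isozymes of the mouse, 5 of them forms found in testis (Ldhc, Pgk2, Gapdhs, Eno4 and Pgam2) and 5 of them general forms (Ldha, Gapdh, Eno1, Pgam1 and Hk1), followed by their H3K27ac peaks through spermatogenesis. They were chosen by name, from 17923 gene symbols that the peak tables list alone. Every peak whose gene label was one of the 10 symbols was taken, which gave 239 of the 471458 H3K27ac peaks, and a promoter peak was one that overlapped 1 kb either side of a transcription start listed under that symbol alone. Peaks were found in this way for 9 of the 10 genes. Eno1 was listed only in a joint label with Gm5506, so its values come from that label and are named as such.

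H3K27ac, the acetylation of lysine 27 on histone H3, marks active promoters and enhancers. It was profiled by ChIPmentation, in which the sequencing adapters are inserted into immunoprecipitated chromatin by a transposase. All animals were on the C57BL/6 background, and cell populations of the testis were separated with magnetic beads or by sedimentation, then fixed with formaldehyde. Thy1+ and c-Kit+ spermatogonia, 2 successive populations of mitotic germ cells, came from mice at postnatal day 7, either wild type (WT) or Scml2-KO (KO). Pachytene spermatocytes (PS), which are in meiotic prophase, and round spermatids (RS), which are haploid, came from adult Scml2-KO mice. Scml2 encodes a Polycomb-associated protein of the male germline. Each of these 6 groups had 2 H3K27ac libraries, 12 in all, and 16 input libraries without immunoprecipitation covered 8 groups of stage and genotype with 2 libraries each. Wild-type H3K27ac profiles of the adult stages were not analysed here, so every comparison of adult with spermatogonial cells is within the knockout, and stage cannot be told apart from the age of the mice or from how the cells were isolated. The labels do not say whether the 2 libraries of a group came from separate animals, so p-values measure the spread between libraries, which may be technical.

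Glycolysis turns glucose into pyruvate, which lactate dehydrogenase interconverts with lactate. Spermatogenic cells replace several of the general enzymes with forms of their own. Some of these are encoded by autosomal copies of X-linked genes, which are silenced in pachytene spermatocytes along with the rest of the sex chromosomes, and sperm depend on glycolysis in the tail for motility.

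The number of peaks differed between stages, from 17877 to 36362 in the 8 spermatogonial and from 63322 to 73316 in the 4 adult libraries, and its part in the results below was not tested except where the same number of strongest peaks was kept in each library. The depth of the libraries is unknown, because the files give peaks and no read counts. Of 6 pachytene markers with a listed start, between 2 and 4 had a promoter peak in spermatogonial libraries and 6 in every adult library. Of 5 round spermatid markers, between 0 and 1 had one in spermatogonial libraries, between 2 and 3 in PS and 2 in RS, so these promoters did not separate RS from PS. Markers of undifferentiated spermatogonia had between 1 and 5 of 6 promoters called in spermatogonia and between 3 and 5 in adult libraries, and markers of differentiating spermatogonia between 1 and 4 and between 3 and 5 of 5, so they did not separate the stages either. Macrophage markers had between 0 and 1 of 2 called in spermatogonia and between 1 and 2 in adult libraries. Sertoli cell and Leydig cell markers each had between 0 and 3 of 5 promoters called in spermatogonia, 3 in each PS library and 1 in each RS library. Peritubular cell markers had between 2 and 3 of 3 called in Thy1+ libraries, between 0 and 2 in c-Kit+ libraries and 1 in each adult library. Endothelial markers had 1 of 2 called in each spermatogonial library and 2 in each adult library. The part of other cell types in the results was not tested, and in such bulk samples fewer marked cells and less acetylation per cell cannot be told apart.

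The value of a promoter is the fold enrichment of its strongest peak as deposited, which is the height of the signal at the summit over a background height that is constant within a library. At the 5 testis-specific genes a promoter peak was called in 20 of 20 pairs of gene and adult library and in 7 of 40 pairs of gene and spermatogonial library. All 7 were at Eno4. Ldhc, Pgk2, Gapdhs and Pgam2 were called in all 4 adult and in none of the 8 spermatogonial libraries, and the upstream start of Hk1, a gene of the general class, had the same pattern. That pattern was found at 964 of the 12467 promoters called in at least 2 libraries, a background of 7.73%. At Ldha, Gapdh and Pgam1, and at Eno1 under its joint label, a peak was called in all 12 libraries, as at 53.1% of those promoters. With the 17877 strongest peaks of each library, the testis-specific genes kept 18 of 20 adult calls and 6 of 40 spermatogonial calls. No promoter of the 10 genes was called in any of the 16 inputs.

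**Figure D1:**
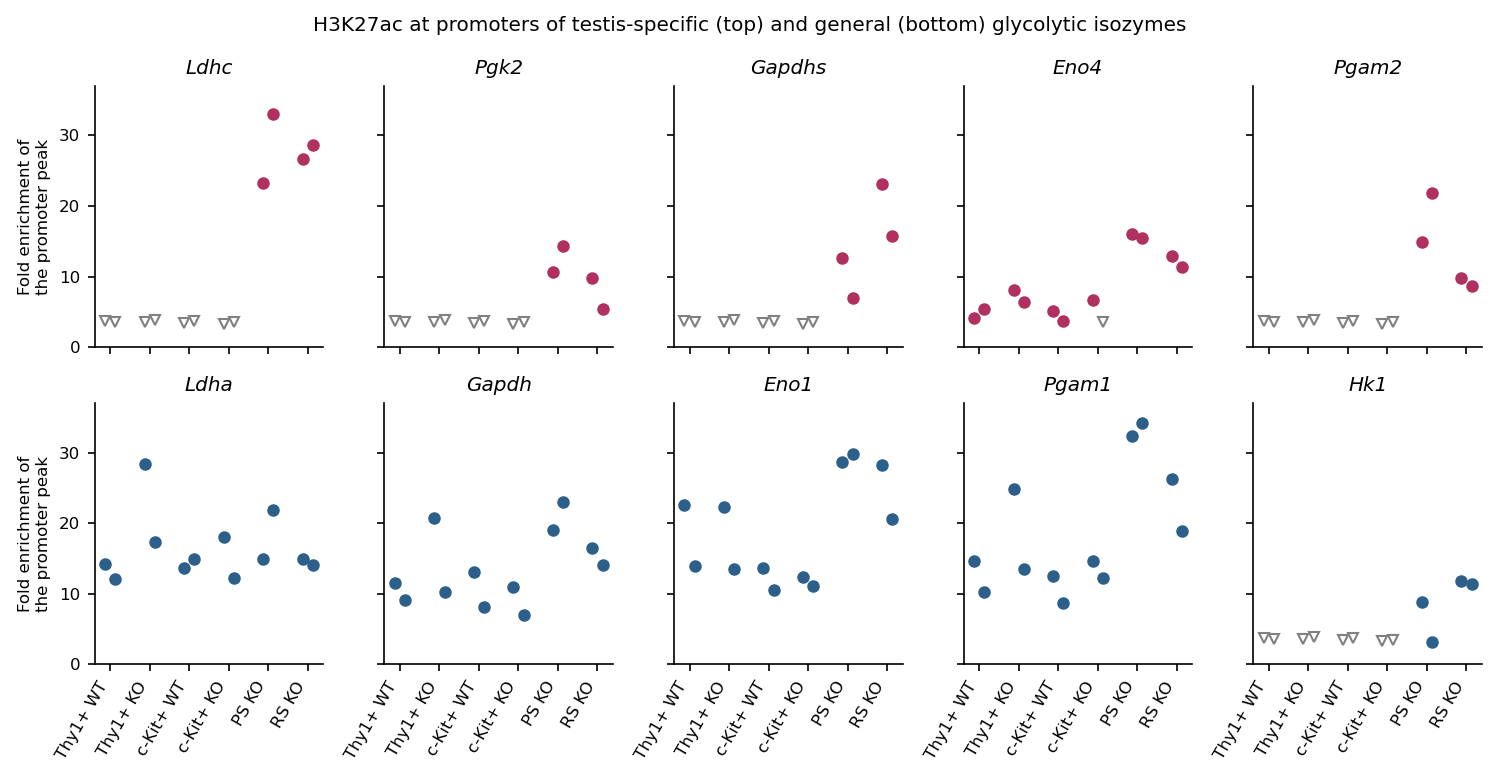
Fold enrichment of the promoter peak (y axis, from 0) of each gene in the 12 H3K27ac libraries, 2 per group (x axis). Filled circles are called peaks, open grey triangles stand at the lowest fold enrichment called anywhere in a library where the promoter had no peak; Eno1 is shown under its joint label and Hk1 at its upstream start. Ldhc, Pgk2, Gapdhs, Pgam2 and Hk1 have circles in the PS and RS libraries and triangles in all 8 spermatogonial ones.

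Ldhc encodes the lactate dehydrogenase subunit of spermatocytes and sperm, and its general counterpart is Ldha, the subunit that favours the making of lactate. The genes are neighbours on chromosome 7 (mm10), both on the plus strand, with starts at 46845804 for Ldha and 46861263 for Ldhc. Ldhc had fold enrichments of 23.3 and 33.1 in PS and of 26.6 and 28.7 in RS. No spermatogonial library had a peak there, in libraries whose weakest called peaks had fold enrichments of 3.31 to 3.84. By the rule, Ldhc had the highest level of the testis-specific genes in all 4 adult libraries. A jointly labelled peak at another Gapdhs start, described below, reached 31.3 in RS KO replicate 1. At Ldha the values were 14.1 and 12.1 in Thy1+ WT, 28.4 and 17.3 in Thy1+ KO, 13.7 and 14.9 in c-Kit+ WT, 18.0 and 12.2 in c-Kit+ KO, 14.9 and 21.9 in PS and 14.9 and 14.1 in RS. These values overlap between stages as deposited. In each adult library Ldhc lay above Ldha, by a ratio of 1.51 to 2.04.

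The 250 bases before the start of each gene, taken from RefSeq promoter sequences of GRCm38.p6, are shown because the neighbours differ in them as well as in their peaks. Capitals mark TGACG (the core of a cAMP response element), ACGTG (the core bound by hypoxia-inducible factors), GGGCGG (a GC box), CCAAT and TATAAA, each searched on both strands. TGACG and ACGTG can overlap each other.

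Ldhc, chr7:46861013-46861262, plus strand: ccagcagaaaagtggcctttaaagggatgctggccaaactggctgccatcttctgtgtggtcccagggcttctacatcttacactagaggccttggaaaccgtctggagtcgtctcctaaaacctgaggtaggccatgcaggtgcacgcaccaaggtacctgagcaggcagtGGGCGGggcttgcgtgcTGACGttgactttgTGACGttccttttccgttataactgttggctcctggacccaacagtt

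Ldha, chr7:46845554-46845803, plus strand: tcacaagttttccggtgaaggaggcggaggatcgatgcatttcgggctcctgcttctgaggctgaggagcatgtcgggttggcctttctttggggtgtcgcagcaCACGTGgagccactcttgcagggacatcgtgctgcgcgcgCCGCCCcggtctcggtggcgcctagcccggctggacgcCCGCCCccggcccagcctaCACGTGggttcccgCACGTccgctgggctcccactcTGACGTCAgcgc

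The Ldhc window holds 2 TGACG matches, which begin 61 and 47 bases before the start, and 1 GGGCGG match 78 bases before it. Its 8 CpG dinucleotides give an observed to expected ratio of 0.433, against a median of 0.373 over 32851 RefSeq promoter windows of the same length. CNGTT, the core bound by MYB proteins, is not in capitals. It occurs 7 times in the Ldhc window, and 0.253% of all windows hold at least as many, while 74.2% hold at least 1. The Ldha window has 25 CpG dinucleotides and a ratio of 0.886, with 5 ACGTG matches in 3 places, 2 GGGCGG matches, 2 overlapping TGACG matches and no CNGTT match. At least as many ACGTG matches stand in 0.134% of all windows, and 16.6% hold at least 1. TGACG is in 17.8%, GGGCGG in 32.7%, CCAAT in 33.9% and TATAAA in 12.4% of all windows. These are matches of letters and no measure of binding.

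The Ldhc peak was also the widest of the testis-specific genes in PS, at 4424 and 2861 bp, and reached 5821 and 3006 bp in RS. Its summit lay between 298 and 400 bp downstream of the start in the 4 adult libraries. The Ldha peak was between 1020 and 2082 bp wide in spermatogonia and between 2664 and 2815 bp in adult cells, and its summit lay between 119 and 519 bp downstream of the first start. The adult libraries also had more peaks, whose part in the widths was not tested. Between the promoters of the genes no peak labelled Ldha or Ldhc was called in spermatogonial libraries. Upstream of Ldha, the region 46837739 to 46839777 on chromosome 7, 6027 bp from the start at its nearest, had weak peaks in 7 libraries, 3 spermatogonial and 4 adult, and the strongest peak of each library there was 4.22 to 7.43.

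**Figure D2:**
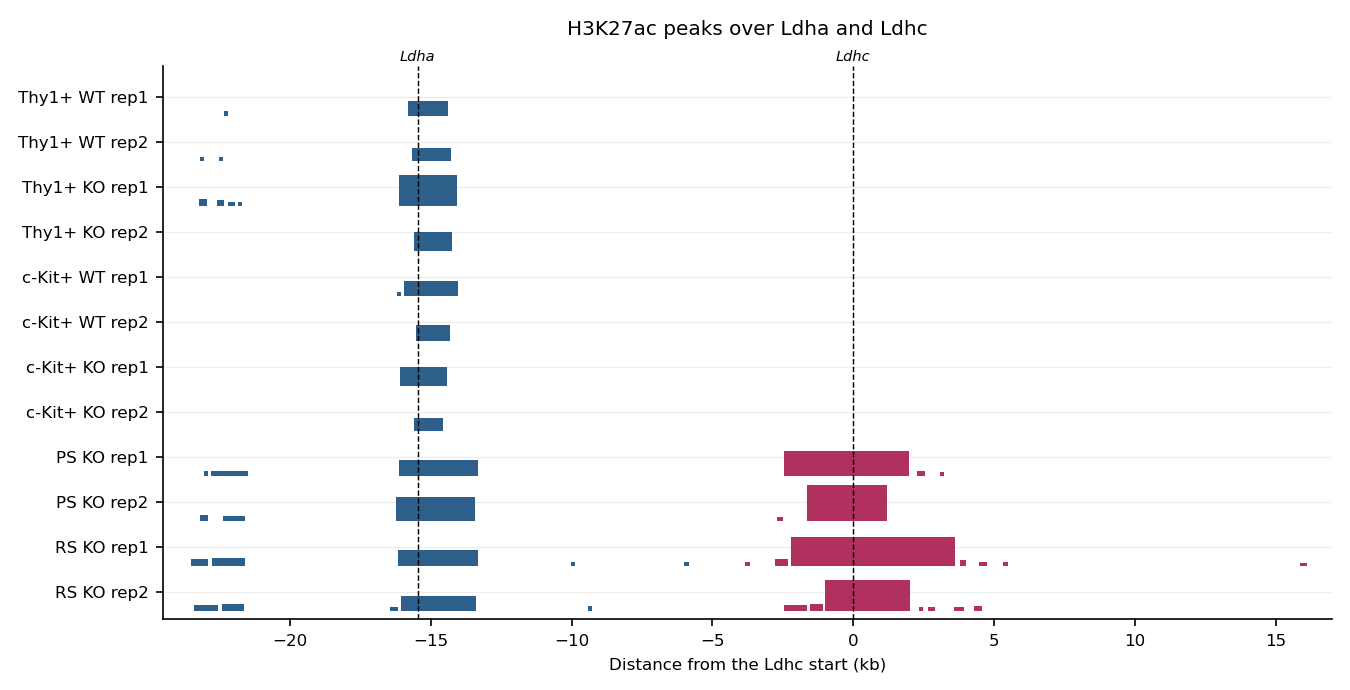
H3K27ac peaks labelled Ldha (blue) or Ldhc (red) in each of the 12 libraries (rows) by distance from the Ldhc start in kb (x axis). The width of a box is the peak and its height is proportional to fold enrichment, up to 33.1; dashed lines mark the first Ldha start and the Ldhc start. Boxes stand over Ldha in all 12 rows and over Ldhc in the 4 PS and RS rows.

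To compare stages, log2 fold enrichments were centred on the median of the 6624 promoters called in all 12 libraries and fitted with limma, with p-values adjusted by the Benjamini-Hochberg method over all 12467 promoters. A difference is therefore relative to the median promoter. On that scale Ldha lay between 0.34 and 0.78 above the median promoter in the 8 spermatogonial libraries and between 0.44 below and 0.04 above it in the 4 adult ones. The groups did not overlap. Among 7209 promoters called in all adult and in at least 7 spermatogonial libraries, 14.0% had adult values below all spermatogonial ones and 7.35% above. Ldha fell by 0.82 (standard error 0.16, 95% interval -1.16 to -0.47, limma adjusted p = 0.00168) from KO spermatogonia to KO adult germ cells and was lower in each of the 4 adult libraries than in each of the 8 spermatogonial ones. It fell by 0.83 from c-Kit+ KO to PS (standard error 0.23, limma adjusted p = 0.0155). In those contrasts 40.8% and 30.4% of all promoters passed, and 26.7% and 24.0% of all promoters were lower, so a fall was common. Among promoters called in all 12 libraries, 19.7% and 11.5% were lower and 10.3% and 4.36% higher. Without centring, all adult minus spermatogonial differences are 0.65 higher and all PS minus c-Kit+ differences 1.11 higher, and Ldha then had -0.17 and 0.28, neither past the threshold. Its PS minus c-Kit+ call was also lost without either c-Kit+ KO library or without PS KO replicate 1, with limma adjusted p-values of up to 0.141.

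**Figure D3:**
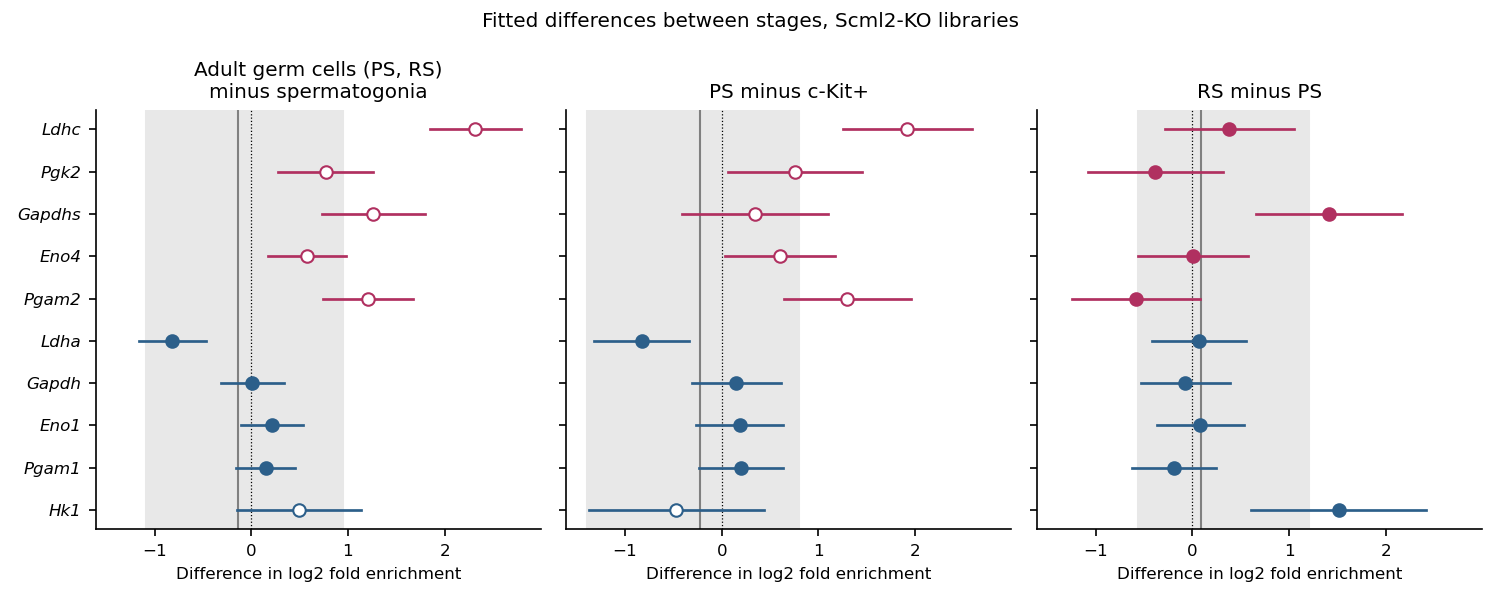
Fitted differences in log2 fold enrichment (x axis) between stages with 95% intervals (lines), for testis-specific (red) and general (blue) genes; the grey band runs from the 5th to the 95th percentile of all promoters and the grey line is their median. Open circles are differences that rest partly or wholly on imputed values of libraries without a peak, and Eno1 is from its joint label. Ldha is at -0.82 and -0.83 in the left and middle panels, and Gapdhs and Hk1 are at 1.42 and 1.51 in the right one.

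Where a library had no peak, the fit used its lowest called fold enrichment. Ldhc, Pgk2, Gapdhs, Pgam2 and Hk1 passed the filter only through adult libraries and are compared with imputed values alone, so their adult minus spermatogonial values are given as a description. They were 2.32 for Ldhc, 0.77 for Pgk2, 1.26 for Gapdhs, 1.21 for Pgam2 and 0.49 for Hk1. After centring, the imputed values themselves differ between stages: a promoter without a peak in all 12 libraries would get -0.82 in this contrast and -1.23 for PS minus c-Kit+. With a single common floor for all libraries, an alternative chosen after seeing the data, the values were 1.83, 0.34, 0.88, 0.73 and 0.39. Ldhc had the highest and Pgk2 the lowest value of the 4 testis-specific genes on both scales, and the values of Gapdhs and Pgam2 differed by less than their standard errors of 0.25 and 0.21. No value between Thy1+ and c-Kit+ cells or between genotypes is given for these 5 promoters, which had no peak in either.

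Phosphoglycerate kinase makes ATP from 1,3-bisphosphoglycerate. Pgk2 is the intronless, autosomal form on chromosome 17, with its start at 40208609 on the minus strand, and stands for X-linked Pgk1 in meiotic and later germ cells. Its fold enrichment was 10.7 and 14.4 in PS and 9.78 and 5.41 in RS. The RS values were below both PS values, but the RS minus PS difference of -0.38 (standard error 0.32) did not pass the threshold (limma adjusted p = 0.586). The peak was 1730 and 1836 bp wide in PS and 544 and 426 bp in RS, a difference that was not tested. Its window is poor in CpG, with a ratio of 0.272, and holds 2 CCAAT matches, 86 and 52 bases before the start.

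Pgk2, chr17:40208610-40208859, minus strand: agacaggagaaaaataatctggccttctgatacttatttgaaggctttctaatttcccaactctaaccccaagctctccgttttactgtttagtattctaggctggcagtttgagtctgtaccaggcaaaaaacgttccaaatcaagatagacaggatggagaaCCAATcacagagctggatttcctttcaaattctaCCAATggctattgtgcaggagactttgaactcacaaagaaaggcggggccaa

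Pgk1 itself had a promoter peak in 11 of 12 libraries. Its fold enrichment was 11.4 and 11.2 in PS and 8.21 and 7.03 in RS, and ranged from 4.08 to 10.6 in the 7 spermatogonial libraries with a peak. Its adult minus spermatogonial difference was -0.03 (95% interval -0.32 to 0.27, limma adjusted p = 0.893), and without centring it was 0.62 and passed. The X-linked gene thus had a promoter peak in both PS libraries.

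Gapdhs encodes the glyceraldehyde-3-phosphate dehydrogenase of the sperm tail and Gapdh the general enzyme. At the Gapdhs start listed in the files (chromosome 7, 30739356, minus strand) the fold enrichment was 12.6 and 6.93 in PS and 23.1 and 15.7 in RS. The RS values lay above both PS values, and the rise of 1.42 (standard error 0.35, 95% interval 0.66 to 2.17) passed the threshold (limma adjusted p = 0.0288). In that contrast 8.0% of all promoters passed, 6.75% as higher and 1.25% as lower, and of the 9588 promoters called in all 4 adult libraries 4.37% were higher and 0.814% lower. The call was lost without PS KO replicate 2 (0.95), RS KO replicate 1 (1.26) or RS KO replicate 2 (1.55). In RS KO replicate 1 the peak was 4130 bp wide and its highest summit lay 3800 bp upstream of the start. With summits required within 1 kb, an alternative chosen after seeing the data, that library's value was 16.8, and the difference was 1.19 with a limma adjusted p of 0.0519.

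RefSeq GRCm38.p6 gives another Gapdhs start at 30743681, 4274 bp upstream of one at 30739407. The peak there was listed jointly under Dmkn, Gapdhs, Sbsn and Tmem147, so it was no member by the rule. Its fold enrichment was 22.5 and 14.9 in PS and 31.3 and 28.7 in RS, above that at the listed start in all 4 libraries, with a single weak peak of 4.26 in c-Kit+ KO replicate 1. The 250 bases before the 2 RefSeq starts align over 229 columns with 88.2% identity. How reads that map to several places were treated is not given in the sources used here. Neither window held any of the 6 motifs, and they held 0 and 1 CpG dinucleotides.

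Gapdh, on chromosome 6 with its listed start at 125165583, had peaks in all 12 libraries. Its fold enrichment was 11.5 and 9.05 in Thy1+ WT, 20.8 and 10.2 in Thy1+ KO, 13.1 and 8.06 in c-Kit+ WT, 10.9 and 7.00 in c-Kit+ KO, 19.1 and 22.9 in PS and 16.4 and 14.1 in RS. Relative to the median promoter the adult libraries lay within the range of the spermatogonial ones. The adult minus spermatogonial difference was 0.01 (95% interval -0.31 to 0.33), PS minus c-Kit+ was 0.15 and RS minus PS was -0.07, and none passed. At its listed start, Gapdhs was below Gapdh in both PS libraries and above it in both RS libraries, with ratios from 0.302 to 1.40. This order depends on the start. At the RefSeq start 30743681, under the joint label, PS KO replicate 1 lay above Gapdh (22.5 against 19.1). There PS KO replicate 2 lay below Gapdh (14.9 against 22.9), and both RS values lay above it. Downstream of the promoter, a weak region with peaks of 4.58 and 4.27 was called in the PS libraries alone.

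**Figure D4:**
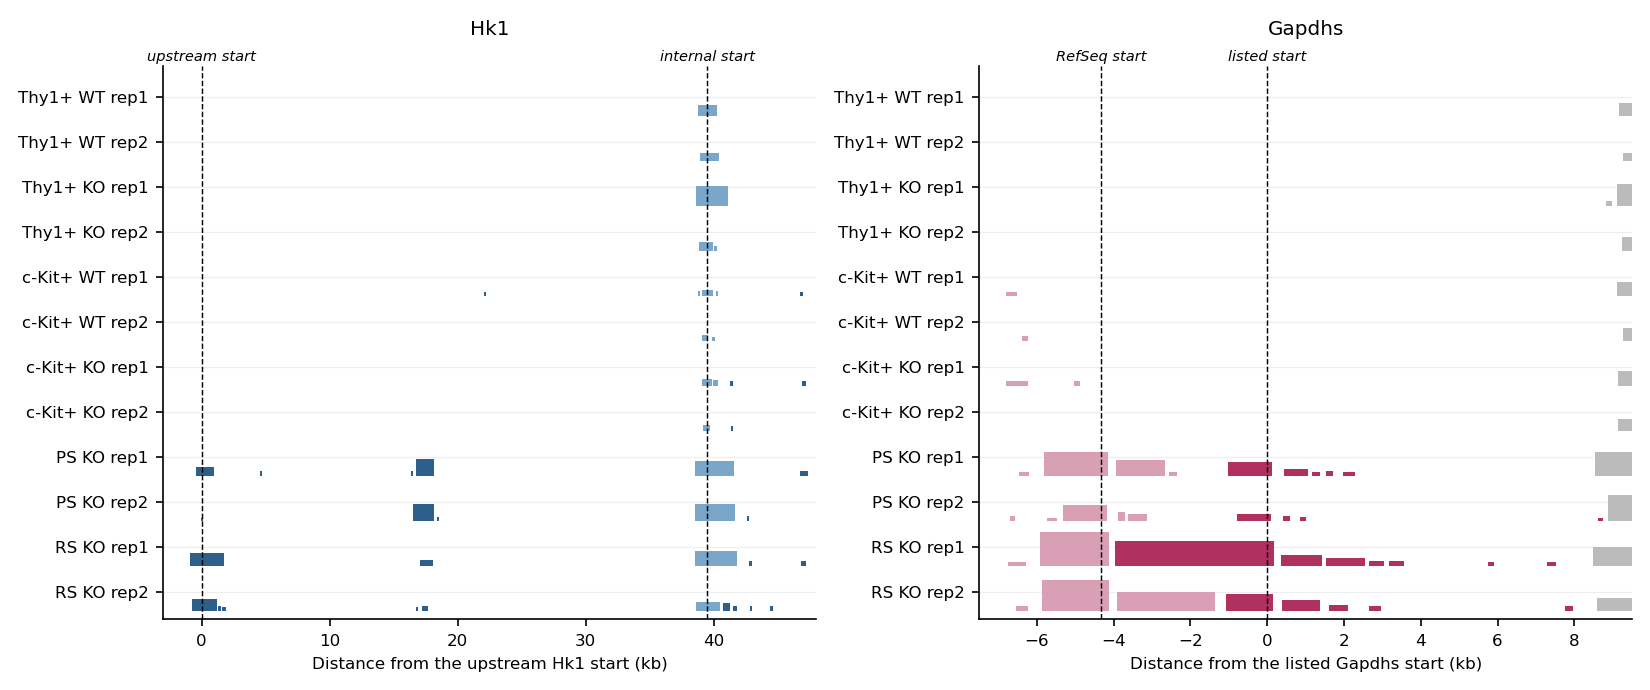
H3K27ac peaks in each of the 12 libraries (rows) along Hk1 (left) and Gapdhs (right), by distance in kb from the upstream Hk1 start and from the listed Gapdhs start (x axes). Box width is the peak and box height is proportional to fold enrichment; dark boxes carry the gene's label alone, pale boxes a joint label, grey boxes Tmem147. At Hk1 the 8 spermatogonial rows have boxes at the internal start and none at the upstream start. At the upstream start the peak of PS KO replicate 2 is only 167 bp wide. In the right panel, the highest boxes whose label names Gapdhs stand at the RefSeq start in the PS and RS rows. The grey Tmem147 box is higher in PS KO replicate 2 (24.5 against 14.9) and equally high in PS KO replicate 1 (22.5).

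Hexokinase 1 starts glycolysis by phosphorylating glucose, and Hk1 is known to give rise to transcripts of its own in spermatogenic cells. The files list starts on the minus strand of chromosome 10 at 62379908 (upstream) and 62340421 (internal), 39487 bp apart. By the rule only the upstream start had peaks, with fold enrichments of 8.77 and 3.20 in PS and 11.7 and 11.4 in RS and none in spermatogonia. Both RS values lay above both PS values, and the rise of 1.51 (standard error 0.42) passed narrowly (limma adjusted p = 0.0443). The value of 3.20 in PS KO replicate 2 is the lowest fold enrichment called anywhere in that library. Leaving out any 1 library ended the call, other than Thy1+ KO replicates 1 and 2 and PS KO replicate 1, and without PS KO replicate 2 the difference was 0.75. It was also lost with quantile normalization (1.02), without centring (1.12), with a minimum −log10 q of 5 (1.12), with only the groups compared (1.51) and with joint labels counted as genes (1.49). The internal start carried peaks listed jointly with 2210417K05Rik in all 12 libraries. They had fold enrichments of 10.5 and 7.24 in Thy1+ WT, 18.2 and 8.31 in Thy1+ KO, 5.70 and 5.58 in c-Kit+ WT, 6.62 and 5.83 in c-Kit+ KO, 13.7 and 16 in PS and 13.7 and 8.66 in RS. With peaks of any label counted, the strongest Hk1 promoter peak did not pass between stages (adult minus spermatogonia -0.05, 95% interval -0.37 to 0.26; RS minus PS 0.11). The c-Kit+ minus Thy1+ difference of -0.51 had a limma adjusted p of 0.141.

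The 2 starts of Hk1 also differ in the 250 bases before them, with 1 CpG dinucleotide and a ratio of 0.0652 at the upstream start and 14 and a ratio of 0.57 at the internal one. Neither holds any of the 5 motifs set in capitals elsewhere.

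Hk1 upstream, chr10:62379909-62380158, minus strand: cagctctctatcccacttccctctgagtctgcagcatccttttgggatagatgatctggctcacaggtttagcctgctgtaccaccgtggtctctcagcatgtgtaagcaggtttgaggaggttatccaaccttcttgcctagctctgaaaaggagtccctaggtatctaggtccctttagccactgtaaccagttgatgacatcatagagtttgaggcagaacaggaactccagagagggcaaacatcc

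Hk1 internal, chr10:62340422-62340671, minus strand: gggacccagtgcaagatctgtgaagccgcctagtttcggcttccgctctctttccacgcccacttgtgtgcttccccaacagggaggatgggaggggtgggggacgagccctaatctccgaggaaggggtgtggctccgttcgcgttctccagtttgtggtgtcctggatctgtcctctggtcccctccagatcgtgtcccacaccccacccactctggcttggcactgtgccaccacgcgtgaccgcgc

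Between the starts, an intronic region at chr10:62361737-62363525 had fold enrichments of 16 and 15.5 in PS and 5.48 and 4.87 in RS and no peak in spermatogonia. Both PS values there were above both RS values, the opposite order to the upstream start in the same libraries; this difference was not tested. Hk1 had 56 of its 60 peaks away from promoters, more than any of the other genes. It also has the longest listed transcript of these genes, from 62268855 to 62379908, and the count is not scaled to length.

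Enolase makes phosphoenolpyruvate from 2-phosphoglycerate. Eno4 is the form needed for the sperm tail and Eno1 the general one. Eno4, on chromosome 19 with its start at 58943425 on the plus strand, was the testis-specific gene with promoter peaks before meiosis. Its fold enrichment was 4.19 and 5.43 in Thy1+ WT, 8.10 and 6.40 in Thy1+ KO, 5.13 and 3.72 in c-Kit+ WT, 6.62 in c-Kit+ KO replicate 1 with no peak in replicate 2, 16 and 15.5 in PS and 12.9 and 11.4 in RS. Every adult value lay above every called spermatogonial value, also relative to the median promoter. Such a separation was found at 7.35% of the 7209 promoters called in all adult and in at least 7 spermatogonial libraries. Eno4 rose by 0.58 from spermatogonia to adult germ cells (standard error 0.19, 95% interval 0.18 to 0.98, limma adjusted p = 0.0253), with 1 imputed library, and 14.1% of all promoters rose in that contrast. The call was lost without any single one of Thy1+ KO replicate 1, c-Kit+ KO replicate 2, PS KO replicate 1, RS KO replicate 1 and RS KO replicate 2, with values of 0.45 to 0.69 over all 12 omissions. PS minus c-Kit+ was 0.60 (limma adjusted p = 0.101) and RS minus PS 0.01. The peak was between 146 and 933 bp wide in spermatogonia and between 1778 and 2094 bp in adult cells. It covered the start in the 4 adult libraries but, among spermatogonial ones, only in Thy1+ KO replicate 1. In the other called spermatogonial libraries the strongest peak lay 45 to 457 bp from the start. The value of 3.72 in c-Kit+ WT replicate 2 is the lowest fold enrichment called anywhere in that library. The Eno4 window had 22 CpG dinucleotides and a ratio of 1.12, higher than in 98.3% of all windows and than in the other testis-specific windows, and no capitalised motif.

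Eno4, chr19:58943175-58943424, plus strand: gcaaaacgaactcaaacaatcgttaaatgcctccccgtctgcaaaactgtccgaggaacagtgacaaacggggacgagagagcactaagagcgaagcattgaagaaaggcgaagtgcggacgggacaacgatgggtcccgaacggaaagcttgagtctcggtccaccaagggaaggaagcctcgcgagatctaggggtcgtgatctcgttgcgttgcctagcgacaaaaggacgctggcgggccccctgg

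Eno1, on chromosome 4 with starts at 150237197 and 150237324, had fold enrichments under its joint label of 22.5 and 13.9 in Thy1+ WT, 22.3 and 13.4 in Thy1+ KO, 13.7 and 10.5 in c-Kit+ WT, 12.3 and 11.1 in c-Kit+ KO, 28.6 and 29.9 in PS and 28.2 and 20.6 in RS. Gm5506 is listed at the same starts, so the values cannot be assigned to either symbol. With joint labels counted as genes, an alternative chosen after seeing the data, no Eno1 difference between stages passed (adult minus spermatogonia 0.22, 95% interval -0.10 to 0.53). Eno4 was below Eno1 in all 4 adult libraries, at ratios of 0.458 to 0.56.

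Phosphoglycerate mutase turns 3-phosphoglycerate into 2-phosphoglycerate. Pgam2 is the form of muscle and testis and Pgam1 the general form. At Pgam2, on chromosome 11 with its start at 5803796 on the minus strand, the fold enrichment was 14.9 and 21.9 in PS and 9.78 and 8.66 in RS. Both PS values were above both RS values, and the difference of -0.58 (standard error 0.30) did not pass (limma adjusted p = 0.326). It passed with quantile normalization (-0.53) and without centring (-0.97). Pgam1, on chromosome 19 with its start at 41911871, had 14.7 and 10.3 in Thy1+ WT, 24.8 and 13.4 in Thy1+ KO, 12.5 and 8.68 in c-Kit+ WT, 14.7 and 12.2 in c-Kit+ KO, 32.4 and 34.1 in PS and 26.2 and 18.9 in RS. Relative to the median promoter its adult and spermatogonial values overlapped, and the difference was 0.15 (95% interval -0.16 to 0.46, limma adjusted p = 0.424). Without centring it was 0.80 and passed. Pgam2 was below Pgam1 in all 4 adult libraries, at ratios of 0.373 to 0.641. The Pgam2 window had 1 CpG dinucleotide and the Pgam1 window 22.

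Pgam2, chr11:5803797-5804046, minus strand: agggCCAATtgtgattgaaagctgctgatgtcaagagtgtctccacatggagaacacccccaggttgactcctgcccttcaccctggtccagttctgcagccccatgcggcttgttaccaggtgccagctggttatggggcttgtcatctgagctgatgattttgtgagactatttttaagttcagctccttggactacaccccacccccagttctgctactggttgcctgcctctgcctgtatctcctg

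Across the genes whose listed starts are RefSeq starts, the CpG ratio differed with the pattern of calls. Of the promoters without a spermatogonial peak, Pgam2 had a ratio of 0.0571, the upstream Hk1 start 0.0652, Pgk2 0.272 and Ldhc 0.433. With the first start of Ldha and of Eno1 taken, the promoters called in spermatogonia as well ranged from 0.57 (Hk1, internal start) to 1.12 (Eno4). Eno1 had 0.663, Pgam1 0.86 and Ldha 0.886. The second listed Ldha start, at 46847082 and within 1 kb of the same peaks, had a ratio of 0.495, below that range. Gapdh and Gapdhs are left out of these ranges because their listed starts are not RefSeq starts. At its RefSeq start 125165773, Gapdh, called in all 12 libraries, had a ratio of 0.422, below the 0.433 of Ldhc. With Gapdh included, the ratios of the 2 patterns thus overlap. The RefSeq windows of Gapdhs had ratios of 0 and 0.0535. Promoters in general differed in the same direction. Among those with a single listed start that is also a RefSeq start, the median ratio was 0.291 (quartiles 0.132 and 0.505) over 513 promoters called in the 4 adult and no spermatogonial libraries and 0.787 (quartiles 0.637 and 0.923) over 3303 called in all 12. The ratios of the isozymes are thus a description of promoters with these patterns and nothing particular to glycolysis.

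**Figure D5:**
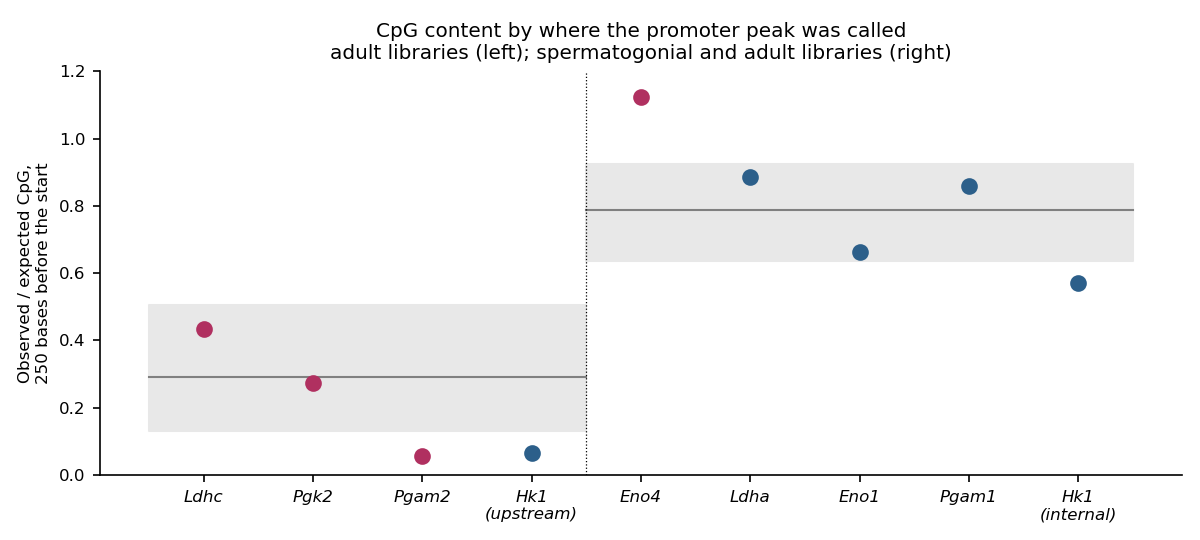
Observed to expected CpG ratio in the 250 bases before the start (y axis) of testis-specific (red) and general (blue) promoters, split by the libraries in which a peak was called. Grey bands and lines are the quartiles and medians of 513 promoters called in adult libraries alone (left) and 3303 called in all 12 (right). The highest ratio shown on the left is 0.433 at Ldhc and the lowest shown on the right 0.57 at the internal Hk1 start. Ldha is shown at its first start, and its second start, with a ratio of 0.495, is not shown. Gapdhs and Gapdh are not shown, and Gapdh, called in all 12 libraries, had a ratio of 0.422 at its RefSeq start.

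Eno4, Ldha, Gapdh and Pgam1 were the genes that could be tested between adult germ cells and spermatogonia by the rule without a group that was wholly imputed. Of these 4, Eno4 passed as higher and Ldha as lower, where 14.1% of all promoters were higher and 26.7% lower. In PS minus c-Kit+, Ldhc and Pgam2 passed as higher, both against imputed values, as did 6.39% of all promoters. The share of calls that were higher depends on the scaling. It was 34.6% with centring, 80.4% with quantile normalization and 93.2% without centring for adult minus spermatogonia. In that contrast Eno4 passed as higher under all 3 scalings and Gapdh under none, while the general gene Pgam1 passed as higher without centring.

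Between c-Kit+ and Thy1+ cells 0.136% of all promoters passed (0.12% higher, 0.016% lower). Between KO and WT spermatogonia 0.0% did by limma, where 392 promoters had an unadjusted p under 0.05. In both contrasts 0 of the 4 isozymes with spermatogonial peaks by the rule passed, and 0 had an unadjusted p under 0.05. Outside the rule, Hk1 with any label had -0.51 for c-Kit+ minus Thy1+ (limma unadjusted p = 0.00343, adjusted p = 0.141). Eno1 under its joint label had -0.27 there and -0.28 for KO minus WT, and neither passed. The c-Kit+ minus Thy1+ differences were -0.09 at Eno4, 0.03 at Ldha, -0.11 at Gapdh and -0.08 at Pgam1. The KO minus WT differences were 0.11 (95% interval -0.29 to 0.51), 0.15 (-0.20 to 0.50), -0.12 (-0.44 to 0.20) and 0.21 (-0.10 to 0.52) in the same order. Differences within these intervals remain compatible with the values of the 4 libraries a genotype. The genotype by stage interaction was called at 0.0% of promoters and at 0 of these 4.

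Overlapping peaks of the libraries merged into 65 regions, 10 at promoters and 55 elsewhere, of which 38 were called in a single library. Regions away from promoters with a peak in all 4 adult libraries numbered 5, with the intronic Hk1 region as the strongest.

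The other genes of the pathway were taken from a list of 37 names of glycolysis, its regulators, glucose and lactate carriers, pyruvate dehydrogenase and glycerol kinase, of which 33 were tested. In adult minus spermatogonia 8 were higher and 7 lower, with 18 not past the threshold, where 14.1% of all promoters were higher and 26.7% lower. Both counts include genes without a spermatogonial peak, which passed the filter only through adult libraries, so the counts are a description. The strongest were Ldhal6b, a lactate dehydrogenase-like retrogene (fold enrichments 30.9 and 34.7 in PS, 23.9 and 22.7 in RS), Pdha2, the autosomal copy of the pyruvate dehydrogenase subunit Pdha1 (22.1 and 22.4 in PS, 27.4 and 22.7 in RS), and Gk2, a glycerol kinase (20.6 and 22.4 in PS, 17.2 and 11.4 in RS). Each was called in 4 adult and no spermatogonial libraries and is thus compared with imputed values alone. Tpi1, triosephosphate isomerase, was called in all 12. Its fold enrichment ranged from 4.66 to 8.61 in spermatogonia and from 16.8 to 35.7 in adult libraries, a rise of 1.21 (limma adjusted p = 0.000713). All 4 adult values lay above all 8 spermatogonial ones, and the call held in every alternative. Relative to the median promoter, 7.35% of the 7209 promoters called in all adult and at least 7 spermatogonial libraries had such a separation. Pfkp, a phosphofructokinase, rose by 0.77 with 5 of 8 spermatogonial libraries called.

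On the other side, X-linked Pdha1 was called in all 12 libraries, with 9.59 to 16.2 in spermatogonia, 15.3 and 13.3 in PS and 12.5 and 7.03 in RS. It fell by 0.70 relative to the median promoter (limma adjusted p = 0.00585) and did not pass without centring (-0.05). Pfkm (-0.61), Ldhb (-0.82), Eno2 (-0.85) and Pfkfb1 (-0.67) also passed as lower. None passed with a common floor, where they were -0.35, -0.36, -0.07 and 0. That floor also raises weak called values. Ldhb, Eno2 and Pfkfb1 rest partly on imputed libraries. Pfkm had a peak in every KO library and lacked one only in Thy1+ WT replicate 2, which is not part of this contrast. Pfkfb1 had peaks in both PS libraries and in no spermatogonial library, so its negative value comes from the imputation. In PS minus c-Kit+ 6 were higher and 5 lower, genes without a spermatogonial peak among them, against 6.39% and 24.0% of all promoters. In RS minus PS, Aldoart2, an aldolase retrogene named after its values were seen, had 4.19 and 4.80 in PS and 8.21 and 11.4 in RS and passed as higher (1.50, limma adjusted p = 0.0177). Hk3 and Slc2a3, also named after their values were seen, passed as higher too, each with a PS library without a peak. None passed between c-Kit+ and Thy1+ cells or between genotypes.

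Over the 12 libraries, the promoters whose values were most like those of Ldhc were Pom121l2, Scrt1, Dkkl1, Actl9 and 4933411E08Rik, with Pearson correlations of 0.9995 to 0.9963. All 5 were called in the 4 adult and no spermatogonial libraries, so that 8 of the 12 points are imputed values shared between genes. Those most like Ldha were Evc (0.979), Itga9, B130024G19Rik, Zufsp and Lysmd2 (0.949), of which Evc had a peak in 4 and B130024G19Rik in 6 of the 12 libraries and the others in all 12.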

How the data were processed

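Each of the 12 H3K27ac and 16 input libraries had its own deposited table of peaks, 1 line per summit, with genes by RefSeq transcript. Per the submitters' processing notes, Bowtie, MACS2 and the mm10 build were used; versions and read filters are not given in the sources used here. Per the file headers the tables hold a signal height (pileup), a fold enrichment and −log10 p-values and q-values. The deposited fold enrichment equalled (height + 1) over (background + 1) with a constant background in each library, so no local or input control enters it, and depth is unknown.

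A promoter's value was the highest fold enrichment of peaks naming the symbol that overlap 1 kb either side of a start listed under it alone. Libraries without such a peak got the lowest fold enrichment called in that library. Log2 values were centred on the median of the 6624 promoters called in all 12 libraries. Promoters called in at least 2 libraries (12467) were fitted with limma 3.58.1 (R 4.3.3) in 1 fit with 6 group coefficients, checked on simulated data; adjusted p under 0.05 counted as called. Other work used Python 3.11.15, pandas 2.3.3 and scipy 1.17.1. Motifs, CpG ratios and sequences come from RefSeq promoter tables of GRCm38.p6, in which all 10 genes matched; 9 of 11 listed starts were RefSeq starts.

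The genes, lists and markers were chosen with earlier results of these data known. All 10 isozymes are named; of the pathway list, Pgk1, Pdha1, Pdha2 and the 5 with the largest called change in each direction between adult germ cells and spermatogonia. Not every result of that list is reported here. Alternatives covered scaling, window, peak threshold, gene label, imputation, filter, samples and single libraries.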

Additional observations from a re-analysis of the deposited data

How the results depend on the processing

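Of 840 differences of the isozymes over all alternatives, those against imputed values included, 739 kept their direction and their side of the threshold. Those that turned sign and further lost calls follow, and the cause was not tested. The adult minus spermatogonial call of Ldha held in all settings run but no centring. Ldhc and Pgam2 were compared with imputed values, so theirs are a description. Their adult minus spermatogonial values ran from 1.64 to 2.97 and from 0.53 to 1.86 in the settings that could be run. Those leave out the settings with 6 or more or all 12 libraries called. The PS minus c-Kit+ value of Pgam2, a description as well, was 0.56 with a −log10 q of 5. It was 1.02 without c-Kit+ KO replicate 1 and 1.06 without PS KO replicate 2. With a minimum −log10 q of 5 the adult minus spermatogonial call of Eno4 was lost. The values of Pgk2 and Gapdhs, against imputed values, were then 0.09 and 0.58. In that setting 3 rather than 7 spermatogonial promoter calls of testis-specific genes were left. The adult minus spermatogonial value of Hk1, also against imputed values, was 1.03 with quantile normalization, 1.14 without centring and 0.39 with a common floor. That of Pgk2 was 0.34 with a common floor and 0.57 to 0.98 over the omissions of single libraries. The joint labels, the summit rule and the common floor were chosen after seeing the data. Promoters called between adult germ cells and spermatogonia numbered 5084, and 2424 in a fit of only those called in all 12 libraries. For PS minus c-Kit+ there were 3791, but 7367 without centring, 1339 in a fit of those called in all 12, 2265 with 6 or more libraries called, 2063 with only the groups compared and 1455 with a common floor. For RS minus PS there were 997, but 80 in a fit of those called in all 12, 472 with a −log10 q of 5 and 291 with 6 or more libraries called. For c-Kit+ minus Thy1+ there were 17, but 193 with quantile normalization, 0 without centring, 124 in a fit of those called in all 12, 35 in a 500 bp window, 64 with any label, 0 with a −log10 q of 5, 395 with equal numbers of strongest peaks, 172 with 6 or more libraries, 49 with only the groups compared, 27 with joint labels and 148 with a common floor. For KO minus WT there were 0 by limma, and 6 with a common floor. Leaving out 1 library at a time gave 3747 to 5182, 1445 to 4249, 77 to 1369, 0 to 123 and 0 to 10 calls in the same order. With the replicate block the numbers were 5862, 4623, 1509, 122 and 0. Deviations of same-numbered libraries correlated at -0.00791 to 0.121 over 15 pairs of groups, 1 of them over 0.1, so these libraries share only a number. The sign turned in these differences. Adult minus spermatogonia: Gapdh -0.03 with any label and -0.02 with joint labels, Hk1 -0.05 with any label and -0.00093 with a −log10 q of 5, Pfkfb1 0.09 with quantile normalization, Pfkm 0.04 without centring and 0.39 with any label, and Pgk1 0.43 with quantile normalization, 0.62 without centring and 0.11 in a 500 bp window. PS minus c-Kit+: Gapdhs -0.39 with a −log10 q of 5 and -0.02 with equal numbers of peaks, Ldha 0.28 without centring, and Hk1 0.52 with quantile normalization, 0.64 without centring, 0.13 with any label and 0.01 with a common floor. RS minus PS: Ldhc -0.01 and Ldha -0.32 without centring, and Eno4 -0.04 with quantile normalization, -0.38 without centring, -0.01 in a 500 bp window and with equal numbers of peaks, and -0.02 with any label, a −log10 q of 5 and joint labels. In spermatogonia: Eno4 c-Kit+ minus Thy1+ 0.18 with a −log10 q of 5 and 0.04 with equal numbers of peaks, Ldha -0.22 without centring, and KO minus WT -0.05 at Eno4 with a −log10 q of 5 and 0.14 at Gapdh without centring. Leaving out single libraries also turned signs, with ranges of -0.07 to 0.09 for Gapdh and -0.09 to 0.02 for Pgk1 in adult minus spermatogonia, -0.12 to 0.82 for Gapdhs and -1.24 to 0.30 for Hk1 in PS minus c-Kit+, -0.05 to 0.08 for Eno4, -0.17 to 0.31 for Ldha and -0.17 to 0.02 for Gapdh in RS minus PS, -0.28 to 0.07 for Eno4, -0.06 to 0.15 for Ldha and -0.20 to 0.0049 for Gapdh in c-Kit+ minus Thy1+, and -0.08 to 0.28 for Eno4 in KO minus WT. None of these differences had passed the threshold except Ldha in PS minus c-Kit+, Pfkfb1 and Pfkm. Peaks carry no read counts, so counting error could not be set against any of these values.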
